A study of Mus musculus with 6 samples.

Results

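The amino acid and glucose transporters are the membrane carriers that move amino acids and sugars into and out of cells. They were taken as every row of the deposited table named as a numbered member of the Slc1a, Slc2a, Slc7a or Slc38a series, together with Slc3a1, Slc3a2 and Slc5a1. This gave 48 of the 24964 gene symbols in the table. RNA was sequenced from mouse uterus around the implantation sites on day 13 of gestation, in 3 libraries labelled as carrying a myometrial PGR knockout and 3 libraries labelled as control. PGR is the progesterone receptor, a nuclear receptor that controls transcription when progesterone binds it, and the myometrium is the smooth muscle wall of the uterus. Strain, age, allele and the promoter driving the deletion are not named in the labels. Nor is it stated whether each library stands for its own animal, so every p-value reflects only how far these libraries spread, which may be technical. The tissue was not restricted to muscle, so transcripts of epithelium, decidua, vessels and blood cells are measured in the same sample.

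Transport proteins of these families work by different means. The Slc2 proteins (GLUT) let sugars down their gradient, and Slc5a1 (SGLT1) pulls glucose in with sodium. The Slc1 and Slc38 proteins move acidic and neutral amino acids, mostly with sodium. The Slc7 family holds carriers of cationic amino acids that work alone, and light chains that reach the cell surface bound to a heavy chain, Slc3a2 or Slc3a1. In the pregnant uterus these carriers are known for supplying the decidua, the gland secretions and the conceptus with glucose, glutamine, leucine and arginine.

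Levels are given as FPKM, the fragments counted on a gene scaled to its length and to the size of the library, which lets genes be compared with each other. Differences are in log2(FPKM + 1), labelled deficient minus control, on which the change of a weakly expressed gene is understated. The FPKM summed to between 357126 and 372372 in the deficient-labelled libraries and between 372412 and 377091 in the controls. Read numbers per library are unknown. Pgr was at 11.3, 12.4 and 7.73 FPKM in the deficient-labelled libraries. In the controls it was at 9.72, 8.33 and 12.1 FPKM, so the groups overlapped (limma adjusted p = 0.91). Bulk Pgr can neither bear out nor refute the label, since RNA of non-muscle cells is included and the allele is not named. Every direction below rests on that label. Deficient 3 and control 3 stood apart within their groups. Deficient 3 correlated at 0.976 and 0.971 with deficient 1 and 2, which correlated at 0.991 with each other, and control 3 at 0.983 and 0.982 with controls 1 and 2, at 0.992 with each other (log2 values across the genes tested, which are not replicates). With controls 1, 2 and 3, deficient 1 correlated at 0.972, 0.969 and 0.977, and deficient 2 at 0.974, 0.973 and 0.977. Deficient 2 was thus closer to every control than to deficient 3, and deficient 1 was closer to control 3 than to deficient 3. Deficient 3 correlated less with the controls, at 0.969, 0.964 and 0.966, than with deficient 1 and 2. The 8 smooth muscle markers summed to between 3261 and 3845 FPKM in the deficient-labelled libraries and to between 8070 and 9848 FPKM in the controls. The 12 trophoblast markers summed to at most 1.85 FPKM in any library, with Gcm1, Synb, Hand1 and Ctsq at 0 in every one. The 9 yolk sac endoderm markers, of which 2 were tested and 0 passed, had larger sums. These were 37.0, 36.6 and 47.6 FPKM in the deficient-labelled libraries and 35.9, 33.7 and 38.1 FPKM in the controls. The 8 decidua markers summed to 89.1, 109.0 and 81.8 FPKM in the deficient-labelled libraries and to 277.5, 465.1 and 194.3 FPKM in the controls, but of the 6 tested the groups did not overlap for 4 that were lower and 2 that were higher, and 1 passed, Fst, which fell. The 5 mast cell markers summed to between 2.96 and 5.25 FPKM in the deficient-labelled libraries and to between 27.7 and 33.9 FPKM in the controls, and 4 of them fell. The 8 erythroid markers summed to between 13.9 and 26.2 FPKM in the deficient-labelled libraries and to between 3.67 and 6.99 FPKM in the controls, and Alas2, the 1 tested, rose, while 4 globin genes of the list were listed at 0 in every library. Most of these sums was Alas2 alone, at between 12.0 and 23.9 FPKM in the deficient-labelled libraries and between 2.8 and 6.0 FPKM in the controls. The part of these cell types in the transporter values was not tested.

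None of the transporters passed the test. Of the 48 members, 29 reached a mean of 1 FPKM over the 6 libraries and were tested with all 12500 such genes by limma, and 0 had a Benjamini-Hochberg adjusted p under 0.05, where 417 of the 12500 genes (3.34%) had. At an unadjusted p under 0.05 there were 3 members (10.3%), Slc2a4, Slc3a1 and Slc38a1, against 21.5% of all genes tested. The differences ran from -0.69 to 0.42, with 14 above and 15 below 0. Their median was -0.0038, where the median over all genes tested was 0.060, and the median size of a difference was 0.13 for the members and 0.12 for all genes. The 95% interval of the difference lay within 0.5 of 0 for 18 members and within 1 of 0 for 24. The intervals of Slc1a1, Slc2a4 and Slc3a1 reached below -1, and those of Slc2a5 and Slc2a9 above 1.

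**Figure D1:**
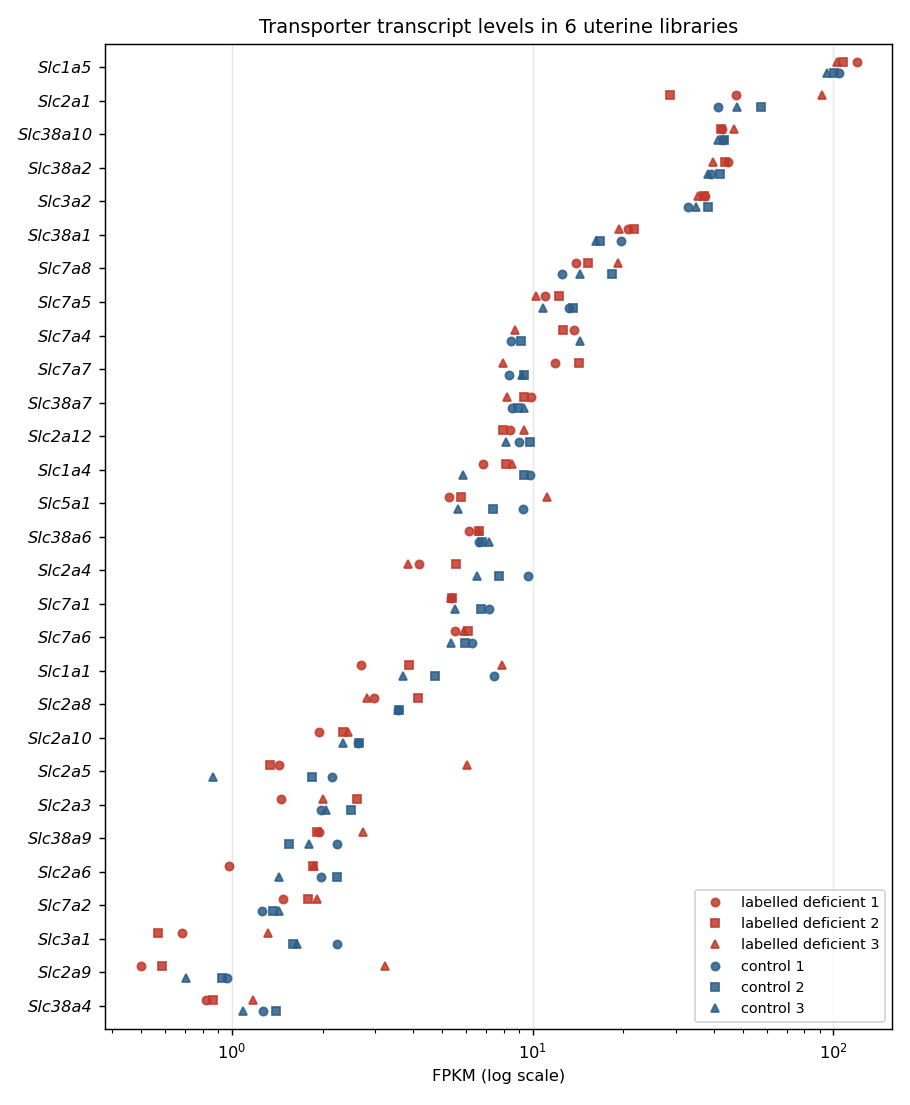
FPKM on a log scale of the 29 transporters tested, 1 point per library, genes ordered by their mean over the 6 libraries, libraries labelled deficient in red above controls in blue. Slc1a5 lies highest at between 95.2 and 119.5 FPKM, and the third library labelled deficient (red triangle) lies far to the right for Slc2a1, Slc2a5 and Slc2a9.

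**Figure D2:**
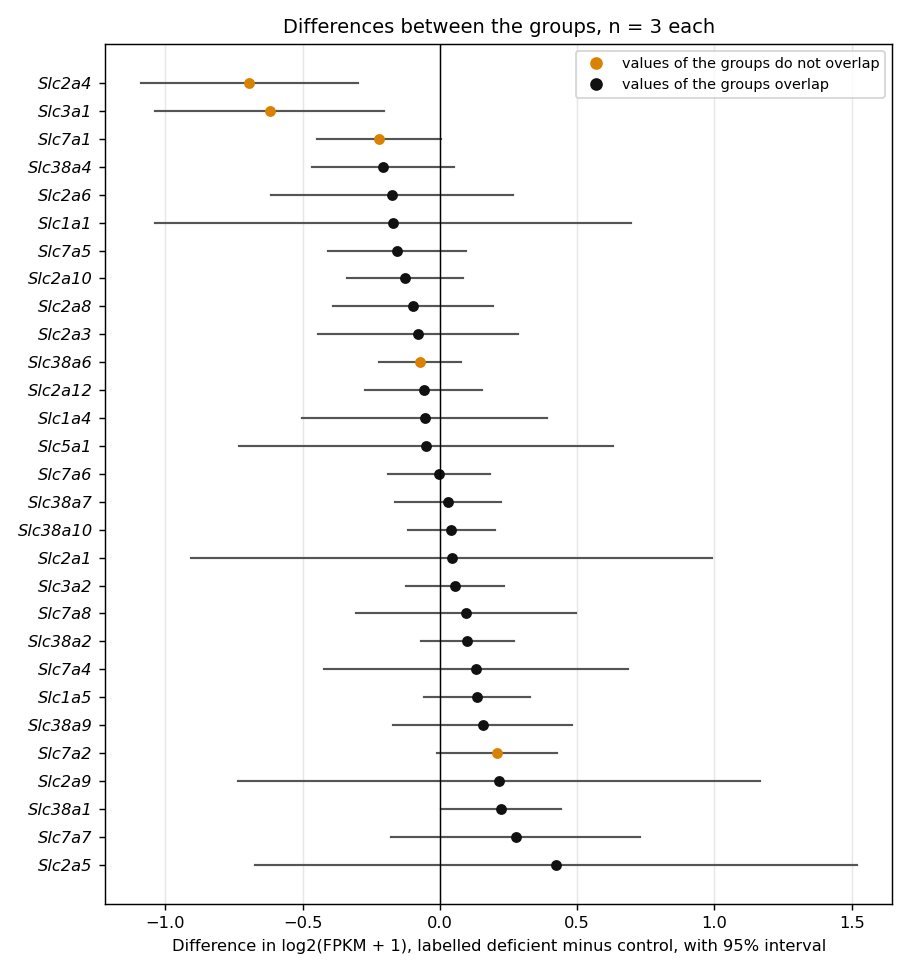
Difference in log2(FPKM + 1) for the same 29 genes, labelled deficient minus control (n = 3 each), with 95% intervals from limma, in orange where the groups do not overlap. Slc2a4 and Slc3a1 lie furthest below 0, and the widest interval, that of Slc2a5, reaches from -0.67 to 1.52.

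Upstream sequences are shown for 3 genes, Slc3a1, Slc2a1 and Slc2a5, because Slc3a1 had all its deficient-labelled values under the controls and the other two are carriers with a high value in deficient 3. They come from RefSeq on GRCm38.p6, lie just upstream of the gene start and run 5′ to 3′ on the plus strand, at chr17:85028097-85028346, chr4:119108495-119108710 and chr4:150119094-150119282. Capitals mark a TATA box (TATAAA) or a GC box (GGGCGG) on either strand. The 2 matches at the end of the Slc3a1 sequence overlap each other.
Slc3a1: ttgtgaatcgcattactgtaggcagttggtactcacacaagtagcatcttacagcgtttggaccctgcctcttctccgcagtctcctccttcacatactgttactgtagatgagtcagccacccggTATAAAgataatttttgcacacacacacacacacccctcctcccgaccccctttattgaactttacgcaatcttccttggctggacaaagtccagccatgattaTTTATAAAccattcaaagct
Slc2a1: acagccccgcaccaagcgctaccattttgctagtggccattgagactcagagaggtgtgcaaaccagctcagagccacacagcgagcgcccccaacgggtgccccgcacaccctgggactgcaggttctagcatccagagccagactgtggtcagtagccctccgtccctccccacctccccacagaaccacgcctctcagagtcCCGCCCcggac
Slc2a5: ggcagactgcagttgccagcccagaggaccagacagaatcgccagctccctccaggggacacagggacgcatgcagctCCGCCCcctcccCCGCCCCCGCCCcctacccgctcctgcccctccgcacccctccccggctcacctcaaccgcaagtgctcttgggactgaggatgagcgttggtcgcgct
Slc3a1 holds 3 TATA box matches and the Slc2 pair hold GC boxes. Of the 250 bases scanned, only the 216 of Slc2a1 and 189 of Slc2a5 outside the annotated gene are printed. The full Slc2a1 window holds 3 matches (GC box, GC box and the hypoxia core ACGTG), of which 1, a GC box, lies in the printed bases. Over the 250 bases before the start of all 32851 promoters in the RefSeq table, TATAAA was found in 12.4% and GGGCGG in 32.7%. Among the 47 promoters of members, TATAAA was in 5 and GGGCGG in 26. The exact letters TGATGCAAT, a form of the amino acid response element, were in none of the 47 promoters of 37 members and in 0.167% of all. Forms that differ by a base were not searched. The Slc7a11 window holds TGATGCAAA, which differs in the last base, on both strands. A progesterone receptor element (G, any base, ACA, any 3 bases, TGT, any base, C) was in 1 of the 47 and 0.387% of all. The core ACGTG of the hypoxia element was in 12 of the 47 and 16.6% of all. These letters are a description of the windows and say nothing of what binds there. Both strands were searched.

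Glucose carriers were led by Slc2a1 (GLUT1), the widespread basal glucose carrier, which is known to rise in the decidua (chromosome 4, 119108711 to 119137983, plus strand, GRCm38). Its level was 47.3, 28.6 and 91.3 FPKM in the deficient-labelled libraries, against 41.2, 57.5 and 47.8 FPKM in the controls. Deficient 2 held the lowest and deficient 3 the highest value of all 6, so the controls lay inside the range of the other group. The means were 55.7 ± 32.2 and 48.8 ± 8.2 FPKM (SD, n = 3 each), a difference of 0.044 (95% interval -0.91 to 0.99, limma adjusted p = 0.96). The difference was -0.39 without deficient 3, -0.069 without control 1, 0.43 without deficient 2 and -0.026 with median-of-ratios scaling. Slc2a1 made up between 46.7% and 67.8% of the summed FPKM of the 13 sugar carriers in the deficient-labelled libraries, and between 49.6% and 59.9% in the controls. That sum was 74.8, 61.2 and 134.7 FPKM in the deficient-labelled libraries and 83.1, 96.8 and 79.7 FPKM in the controls.

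Slc2a4 (GLUT4), the insulin-responsive glucose carrier of muscle and fat, was the sugar carrier with the smallest p (chromosome 11, 69942539 to 69948188, minus strand). It stood at 4.19, 5.55 and 3.84 FPKM in the deficient-labelled libraries and at 9.64, 7.71 and 6.51 FPKM in the controls. The groups did not overlap, with the highest value labelled deficient below the lowest control. The means were 4.53 ± 0.90 and 7.95 ± 1.58 FPKM (SD, n = 3 each), a control level 1.76 times that of the deficient-labelled libraries. The difference was -0.69 (SE 0.16, 95% interval -1.09 to -0.30), and its limma adjusted p of 0.084 missed the threshold and lay between 0.051 and 0.24 over the alternatives run. All 8 smooth muscle markers, Actg2, Des, Tagln and Myh11 among them, fell in the same libraries, with the sums given above. Their part in the Slc2a4 values was not tested, and in bulk tissue fewer muscle cells and less RNA per cell cannot be told apart.

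Slc2a5 and Slc2a9 had a single high library. Slc2a5 (GLUT5) carries fructose, and it was at 1.44, 1.34 and 6.06 FPKM in the deficient-labelled libraries, against 2.15, 1.84 and 0.868 FPKM in the controls. Slc2a9 (GLUT9), which carries urate, was at 0.499, 0.585 and 3.24 FPKM in the deficient-labelled libraries, against 0.966, 0.928 and 0.703 FPKM in the controls. For both genes deficient 3 lay above every other library, at 2.82 and 3.35 times the highest of them, while deficient 1 and 2 were below 2 or more controls. Their differences of 0.42 and 0.21 (limma adjusted p = 0.64 and 0.79) were -0.099 and -0.27 without deficient 3. These were named after their values were seen. Slc2a7, a close relative that lies next to Slc2a5 on chromosome 4, was at 0.035 FPKM in deficient 2 and listed at 0 in the other libraries.

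Slc5a1, the sodium-driven glucose carrier known from gut and kidney and present in uterine epithelium (chromosome 5, 33104219 to 33162870, plus strand), was at 5.28, 5.78 and 11.1 FPKM in the deficient-labelled libraries and at 9.31, 7.40 and 5.63 FPKM in the controls. Deficient 3 was again the highest library, and the groups overlapped. The means of 7.40 ± 3.25 and 7.45 ± 1.84 FPKM (SD, n = 3 each) differed by -0.050 on the log2 scale (95% interval -0.73 to 0.63, limma adjusted p = 0.94).

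Slc2a12 (GLUT12), a further insulin-responsive carrier, was at 8.43, 7.98 and 9.37 FPKM in the deficient-labelled libraries and 9.02, 9.80 and 8.17 FPKM in the controls. Of its 4237 exon bases, 407 lie on exons of Tbpl1 on the opposite strand. Tbpl1 averaged 9.90 FPKM in the deficient-labelled libraries and 9.06 FPKM in the controls. The difference of Slc2a12 was -0.059 with a 95% interval from -0.27 to 0.15 (limma adjusted p = 0.74). The other tested Slc2 genes were lower still, with Slc2a8 at between 2.81 and 4.14 FPKM, Slc2a3 (GLUT3, the high-affinity carrier of neurons and trophoblast) at between 1.46 and 2.61, Slc2a10 at between 1.95 and 2.64, and Slc2a6 at between 0.979 and 2.23 FPKM over the 6 libraries. Of the 9 Slc2 genes tested, 3 had a difference above 0 and 6 below, with a median of -0.081.

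**Figure D3:**
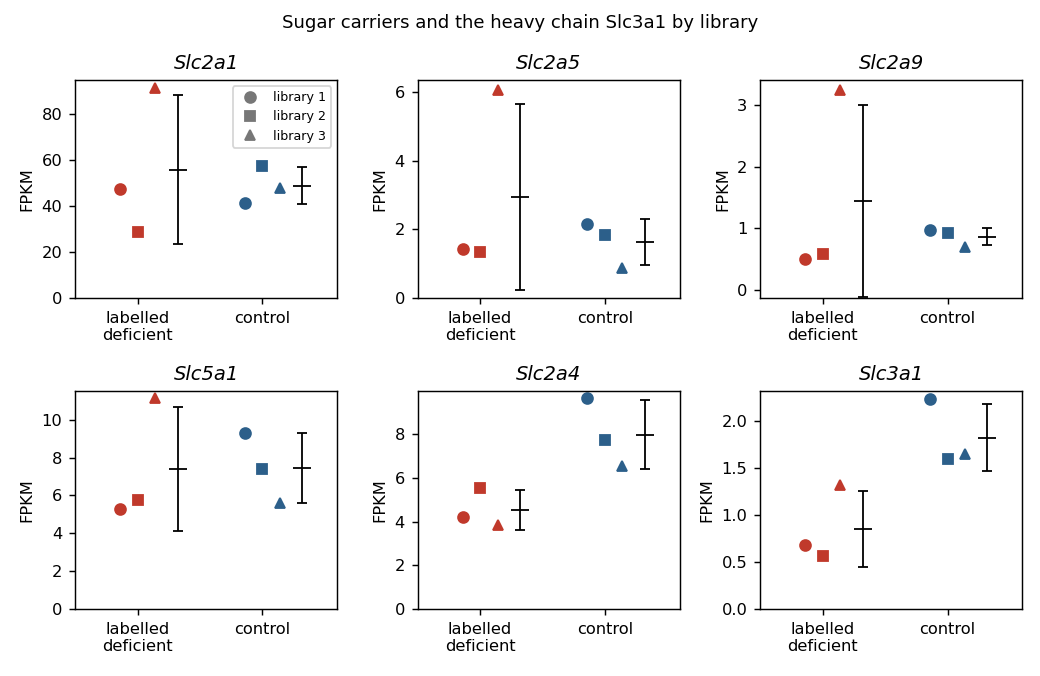
FPKM of 6 genes in each library, libraries labelled deficient in red left of controls in blue, with a circle, square and triangle for libraries 1, 2 and 3 and the black bar giving mean ± SD (n = 3). Slc2a1, Slc2a5, Slc2a9 and Slc5a1 are highest in deficient 3, while Slc2a4 and Slc3a1 lie below every control in all 3 libraries labelled deficient.

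Deficient 3 was the highest of the 6 libraries for 9 of the 29 members (31.0%), against 24.2% of all genes tested. It was at least 1.5 times the highest other library for 3 members (10.3%), Slc2a1, Slc2a5 and Slc2a9, against 1.30% of all genes. The spread of the log2 values was larger among the deficient-labelled libraries than among the controls for 19 members (65.5%) and for 49.9% of all genes. In deficient 3 the gland proteases Prss28 and Prss29 were at 86.6 and 207.1 FPKM, with at most 7.46 and 43.5 FPKM in any other. The 10 epithelial markers summed to 1300, 1189 and 917.2 FPKM in deficient 1, 2 and 3, and to between 781.8 and 915.9 FPKM in the controls. Of the 9 epithelial markers tested, 2 passed and rose and 0 passed and fell. All 9 had a difference above 0, and for 3 every deficient-labelled value lay above the controls. The 6 endothelial markers summed to 122.0, 107.9 and 152.4 FPKM in deficient 1, 2 and 3, and to between 120.6 and 130.1 FPKM in the controls. The 6 uterine NK cell markers, of which 1 was tested and 0 passed, summed to 4.78, 3.23 and 9.04 FPKM in deficient 1, 2 and 3. In the controls they summed to between 2.10 and 2.69 FPKM. Their part in the transporter values was not tested, and the genes named here were chosen after their values were seen.

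Slc3a1, the heavy chain that carries the cystine and dibasic amino acid exchanger to the cell surface (chromosome 17, 85028376 to 85064236, plus strand), was at 0.683, 0.567 and 1.32 FPKM in the deficient-labelled libraries. In the controls it was at 2.23, 1.59 and 1.65 FPKM, so the groups did not overlap. The means were 0.855 ± 0.403 and 1.82 ± 0.35 FPKM (SD, n = 3 each), a control level 2.13 times that of the deficient-labelled libraries. The difference was -0.62 (SE 0.17, 95% interval -1.04 to -0.20) with a limma adjusted p of 0.12. Leaving out deficient 3 brought it past the threshold (-0.79, limma adjusted p = 0.035), as did leaving out deficient 3 and control 3 together (-0.83, limma adjusted p = 0.034), while its adjusted p reached 0.31 in another fit. Its light chain partner Slc7a9 had 0.465, 0.261 and 0.614 FPKM in the deficient-labelled libraries and 0.218, 0.178 and 0.739 FPKM in the controls, and those groups overlapped. The annotation places 601 of the 2271 exon bases of Slc3a1 on exons of Prepl on the opposite strand, and the use of strand in counting is unknown. Prepl was at 11.7 ± 0.5 and 11.5 ± 0.8 FPKM (SD, n = 3 each), with a difference of 0.029.

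Slc3a2, the heavy chain shared by most Slc7 light chains (chromosome 19, 8706882 to 8723369, minus strand), was far more abundant. It was at 37.3, 37.3 and 35.4 FPKM in the deficient-labelled libraries and at 32.8, 38.3 and 34.9 FPKM in the controls. The difference was 0.055 with a 95% interval from -0.12 to 0.23 (limma adjusted p = 0.71). Its light chains Slc7a5, Slc7a6, Slc7a7, Slc7a8, Slc7a10 and Slc7a11 together reached 42.8, 48.2 and 44.1 FPKM in the deficient-labelled libraries and 41.4, 48.3 and 40.5 FPKM in the controls. The ratio of their sum to Slc3a2 was between 1.15 and 1.29 in the deficient-labelled libraries and between 1.16 and 1.26 in the controls, and the ranges overlapped.

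**Figure D4:**
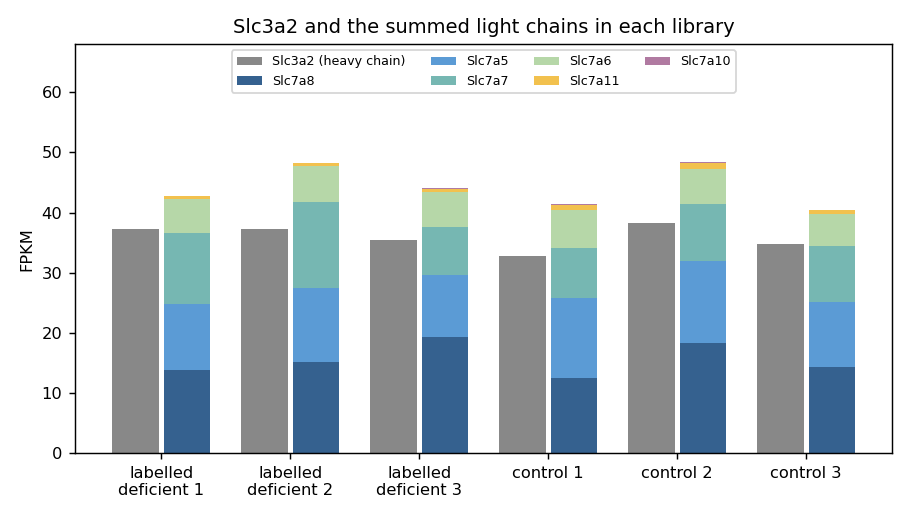
FPKM in each library of the heavy chain Slc3a2 (grey bars) and, stacked beside it, of the 6 light chains that pair with it, libraries labelled deficient left of controls. The stacked light chains reach between 40.5 and 48.3 FPKM and the heavy chain between 32.8 and 38.3 FPKM.

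Among the light chains, Slc7a8 (LAT2, an exchanger of neutral amino acids) led. It was at 13.9, 15.3 and 19.3 FPKM in the deficient-labelled libraries and at 12.6, 18.4 and 14.3 FPKM in the controls (difference 0.096, 95% interval -0.31 to 0.50, limma adjusted p = 0.78). Slc7a5 (LAT1), which brings in leucine and other large neutral amino acids, was at 11.0, 12.2 and 10.3 FPKM in the deficient-labelled libraries and at 13.2, 13.7 and 10.9 FPKM in the controls. Its difference was -0.16 (95% interval -0.41 to 0.096, limma adjusted p = 0.44), and the groups overlapped only through control 3. Slc7a7, the light chain for cationic and neutral amino acids known from epithelia and macrophages, was at 11.8, 14.2 and 7.96 FPKM in the deficient-labelled libraries and at 8.35, 9.33 and 9.21 FPKM in the controls. Here deficient 1 and 2 lay above every control and deficient 3 below them all, and the difference of 0.28 did not pass (limma adjusted p = 0.44). It was 0.49 without deficient 3 (limma adjusted p = 0.061) and 0.11 without deficient 2 (limma adjusted p = 0.78). The 6 macrophage markers summed to between 342.9 and 385.7 FPKM in the deficient-labelled libraries and between 341.6 and 395.0 FPKM in the controls, with control 2 highest. Slc7a6 (difference -0.0038) lay at between 5.34 and 6.31 FPKM in all 6 libraries. Slc7a7 and the other genes outside the first 3 of the family were named after their values were seen.

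Slc7a11 (xCT), the cystine-glutamate exchanger that feeds glutathione synthesis, was below the level needed for the test. It was at 0.497, 0.366 and 0.564 FPKM in the deficient-labelled libraries and at 0.847, 0.981 and 0.615 FPKM in the controls, with no overlap. With no filter on low values its difference was -0.30 (unadjusted p = 0.020, limma adjusted p = 0.20).

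The cationic carriers work without a heavy chain and bring in arginine and lysine. Slc7a1 (CAT1), the general one, was at 5.34, 5.41 and 5.37 FPKM in the deficient-labelled libraries and at 7.15, 6.73 and 5.50 FPKM in the controls. All libraries labelled deficient lay just under the lowest control, and the difference was -0.22 (SE 0.094, 95% interval -0.45 to 0.0055, limma adjusted p = 0.24). Slc7a2 (CAT2), the carrier linked to induced arginine uptake, was at 1.48, 1.78 and 1.92 FPKM in the deficient-labelled libraries and at 1.26, 1.37 and 1.43 FPKM in the controls, again without overlap and in the other direction (difference 0.21, limma adjusted p = 0.25). Summed with Slc7a3, the cationic carriers were at 7.31, 7.67 and 7.61 FPKM in the deficient-labelled libraries and at 8.74, 8.32 and 7.25 FPKM in the controls, which overlap. Slc7a1 was 73.0%, 70.6% and 70.5% of that sum in the deficient-labelled libraries and 81.8%, 80.9% and 75.8% in the controls.

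Slc7a4, a relative of the cationic carriers, was at 13.7, 12.6 and 8.73 FPKM in the deficient-labelled libraries and at 8.48, 9.12 and 14.3 FPKM in the controls. The third library was the odd one in each group and in opposite directions. The difference was 0.13 (95% interval -0.42 to 0.69, limma adjusted p = 0.78) over all 6 libraries, and 0.53 (adjusted p = 0.026) without deficient 3 and control 3. Of its 4153 exon bases, 554 lie on exons of P2rx6 on the opposite strand, a gene at 3.18, 4.55 and 6.02 FPKM in the deficient-labelled libraries and at 3.75, 3.78 and 3.27 FPKM in the controls. Of the 7 Slc7 genes tested, 4 had a difference above 0 and 3 below.

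Slc1a5 (ASCT2), the sodium-dependent glutamine exchanger, was the most abundant of all 48 members (chromosome 7, 16781340 to 16798274, plus strand). Its level was 119.5, 107.5 and 103.1 FPKM in the deficient-labelled libraries, against 104.1, 100.7 and 95.2 FPKM in the controls. The ranges met, since deficient 3 lay under control 1. The means of 110.1 ± 8.5 and 100.01 ± 4.53 FPKM (SD, n = 3 each) differed by 0.13 on the log2 scale (95% interval -0.057 to 0.33, limma adjusted p = 0.38). It made up between 85.9% and 92.3% of the summed FPKM of the 7 Slc1 genes in the deficient-labelled libraries and between 85.4% and 90.5% in the controls. Slc1a4 (ASCT1), which exchanges serine, alanine and cysteine, was at 6.85, 8.14 and 8.53 FPKM in the deficient-labelled libraries and 9.76, 9.39 and 5.85 FPKM in the controls (difference -0.055, limma adjusted p = 0.89).

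Slc1a1 (EAAC1), the glutamate carrier of epithelia and neurons, was at 2.68, 3.87 and 7.91 FPKM in the deficient-labelled libraries and at 7.45, 4.75 and 3.69 FPKM in the controls. Its order across libraries was that of Slc5a1, with deficient 3 and control 1 highest, and the difference of -0.17 had a 95% interval from -1.04 to 0.70 (limma adjusted p = 0.82). Of its 8257 exon bases, 2631 lie on exons of 4430402I18Rik on the opposite strand, a gene at between 0.075 and 0.165 FPKM. The other glutamate carriers, known mainly from brain and retina, were hardly present. Slc1a3 was at between 0.271 and 0.557 FPKM, and Slc1a2, Slc1a6 and Slc1a7 were at 0.17 FPKM or less in every library.

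The Slc38 carriers of glutamine and small neutral amino acids were led by Slc38a10 and Slc38a2. Slc38a10, a family member of the Golgi and endoplasmic reticulum, was at 42.6, 42.2 and 46.7 FPKM in the deficient-labelled libraries and at 43.0, 43.4 and 41.2 FPKM in the controls (difference 0.042, 95% interval -0.12 to 0.20, limma adjusted p = 0.75). Slc38a2 (SNAT2), the carrier that cells are known to induce when amino acids run short, was at 44.6, 43.5 and 39.9 FPKM in the deficient-labelled libraries and at 39.1, 41.8 and 38.2 FPKM in the controls (difference 0.10, 95% interval -0.071 to 0.27, limma adjusted p = 0.46). Slc38a1 (SNAT1), its close relative and neighbour on chromosome 15, was at 20.8, 21.8 and 19.3 FPKM in the deficient-labelled libraries and at 19.7, 16.7 and 16.3 FPKM in the controls. Only control 1 reached into the range of the other group, and the difference was 0.22 (95% interval 0.0048 to 0.44, unadjusted p = 0.046, limma adjusted p = 0.23). Together the 11 Slc38 genes summed to 127.7, 127.2 and 126.1 FPKM in the deficient-labelled libraries and to 121.6, 121.8 and 116.2 FPKM in the controls.

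Slc38a4 (SNAT4), an imprinted carrier of the placenta, lies in the same stretch of chromosome 15 as Slc38a1 and Slc38a2 (96571418 to 97055956 for the 3 genes, all on the minus strand). It was far less abundant, at 0.822, 0.864 and 1.18 FPKM in the deficient-labelled libraries and at 1.27, 1.40 and 1.09 FPKM in the controls (difference -0.21, limma adjusted p = 0.32). The lysosomal members Slc38a7, which releases glutamine, and Slc38a9, the arginine sensor of mTORC1, had differences of 0.029 and 0.16 and overlapping groups. Slc38a6 was at 6.148, 6.649 and 6.645 FPKM in the deficient-labelled libraries and at 6.654, 6.779 and 7.159 FPKM in the controls, which did not overlap by a narrow margin (difference -0.072, limma adjusted p = 0.54). Of the 7 Slc38 genes tested, 5 had a difference above 0 and 2 below.

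Across the 29 members tested, the groups did not overlap for 5. The values labelled deficient were all lower for 4 (Slc2a4, Slc3a1, Slc7a1 and Slc38a6), or 13.8% of the members against 8.16% of all genes tested, and all higher for 1 (Slc7a2), or 3.4% against 20.8%. The other 19 members averaged under 1 FPKM and entered the fit with no filter on low values, where 0 of them passed, against 1.63% of 19958 genes, with a lowest limma adjusted p of 0.17. Of these, 12 averaged under 0.2 FPKM, among them Slc2a2 (GLUT2, the carrier of liver and pancreas), Slc38a3, Slc38a8, Slc7a10, Slc7a12, Slc7a13, Slc7a14 and Slc7a15. The groups did not overlap for 3 of the 19, against 12.8% of such genes. They were Slc7a11, Slc38a11 (0.338, 0.339 and 0.388 FPKM in the deficient-labelled libraries, 0.337, 0.271 and 0.287 FPKM in the controls) and the proton-coupled inositol carrier Slc2a13. Slc2a13 was at 0.332, 0.304 and 0.513 FPKM in the deficient-labelled libraries and at 0.624, 0.623 and 0.573 FPKM in the controls (difference -0.22, unadjusted p = 0.014). The remaining members, Slc38a5, Slc7a3 and Slc7a9, averaged between 0.36 and 0.77 FPKM over the 6 libraries.

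Other genes of nutrient handling were counted in lists beside the carriers. Of 9 further sugar and lactate carriers tested, Slc5a9 rose and 0 fell, where 3.34% of all genes tested passed in either direction. Slc5a9 (SGLT4), a sodium-coupled carrier of mannose and other sugars, was at 14.5, 14.7 and 19.3 FPKM in the deficient-labelled libraries and at 9.64, 10 and 8.25 FPKM in the controls. Every library labelled deficient lay above every control, with a difference of 0.73 (SE 0.13, limma adjusted p = 0.037). The call did not survive leaving out deficient 1 (limma adjusted p = 0.089), deficient 2 (0.085), control 1 (0.13), control 2 (0.11) or control 3 (0.079). Nor did it survive testing without the filter (limma adjusted p = 0.066) or with the replicate number as a block (0.13). Of 12 glycogen and fructose enzymes tested, Pygb fell and 0 rose. Pygb, the brain form of glycogen phosphorylase, was at 24.3, 31.5 and 29.4 FPKM in the deficient-labelled libraries and at 54.3, 50.4 and 50.5 FPKM in the controls (difference -0.85, SE 0.10, limma adjusted p = 0.014). Leaving out control 1 or control 2 ended the call (limma adjusted p = 0.071 and 0.064), as did the replicate number as a block (0.072).

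Against 3.34% of all genes tested, 0 genes passed in the remaining lists. They were 19 other amino acid carriers (median difference -0.031), 27 genes of the ATF4 amino acid response (-0.0096), 23 of glycolysis (0.10), 30 of amino acid sensing by mTORC1 (0.095), 10 of glutamine and glutamate metabolism (-0.012) and 16 of arginine and polyamine metabolism (0.014). In that order, the unadjusted p was under 0.05 for 5, 9, 1, 4, 1 and 2 genes, where 21.5% of all genes tested were under it. Deficient-labelled values were all above the controls for 2, 3, 1, 11, 1 and 1 genes of these lists, where 20.8% of all genes tested were, and all below for 5, 4, 1, 1, 0 and 1 genes, where 8.16% of all genes were.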

How the data were processed

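RNA sequencing of 6 uterine samples was compared, 3 labelled deficient and 3 control. The authors deposited FPKM values, rounded to 3 decimals, and no counts. The submitters' processing notes name STAR 2.7.0f, cutadapt 2.7, build mm10 and DESeq2 1.24.0, without roles. The counting program, annotation, use of strand and FPKM formula are unknown from the sources used. Each column carries a name that occurs in the labels of 1 sample.

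Differences were fitted with limma 3.58.1 in R 4.3.3 (eBayes, trend on) on log2(FPKM + 1) over the 12500 genes averaging 1 FPKM or more, without covariates, with p-values adjusted by Benjamini-Hochberg over all of them. The fit was tested on simulated data for 12500 genes. With 200 genes changed 2-fold it recovered 163 and made 19 false calls, and with 200 changed 4-fold it recovered 189 and made 8. With 0 genes changed it made 0 calls. Depth per library is unknown, so no counting interval is given. Given in every library were members past the threshold, those separated by at least 0.5 on the log2 scale, the 3 most abundant of the Slc1, Slc2, Slc7 and Slc38 families, and Slc3a1, Slc3a2 and Slc5a1. Others were named after their values were seen. Members, lists and alternatives were chosen with earlier results of these data known. Positions are from GENCODE M21 (GRCm38), where all 48 members matched by symbol. Besides the overlaps given above, Slc1a2, Slc2a1, Slc38a9, Slc38a10, Slc7a2, Slc7a7 and Slc7a10 share exon bases with a gene on the opposite strand. RefSeq promoters matched 37.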

Additional observations from a re-analysis of the deposited data

How the results depend on the processing

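The 29 members were refitted with pseudocounts of 0.1 and 0.5, no filter, a minimum of 5 FPKM, 3 other scalings, no trend, a replicate block, each library left out, and deficient 3 and control 3 left out together. Of 454 such member values, 419 kept direction and side of the threshold, 3 newly passed and 32 changed sign, in 13 members. Over all genes, 168 rose and 249 fell. With median-of-ratios scaling 391 fell. Without deficient 3 and control 3, 616 rose and 658 fell. With 1 library left out, between 26 and 277 rose and between 72 and 242 fell. Members passed in 2 settings. Between 0 and 1 fell with 1 library left out (Slc3a1, without deficient 3), and 1 rose (Slc7a4) and 1 fell (Slc3a1) without deficient 3 and control 3. Of the list genes, 1 rose and 1 fell. With no filter 0 rose, with a minimum of 5 FPKM 2 fell, with median-of-ratios or quantile scaling 3 fell, and without deficient 3 and control 3, 7 rose and 13 fell. With 1 library left out, between 0 and 5 rose and between 0 and 5 fell. The cause of these shifts was not tested.

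Replicate numbers did not pair the libraries: deviations of same-numbered libraries correlated at -0.136, 0.079 and -0.132 across genes. With the replicate block 31 genes rose and 112 fell, of the list genes 0 rose and 0 fell, and 0 members passed.

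Signs turned with median-of-ratios scaling for Slc2a1 (-0.026), Slc38a10 (-0.028), Slc38a7 (-0.035) and Slc3a2 (-0.014), with quantile scaling for Slc38a7 (-0.019), and with sums set to 1000000 for Slc7a6 (0.039). Without deficient 3 and control 3 they turned for Slc2a1 (-0.40), Slc2a5 (-0.33), Slc2a9 (-0.34), Slc38a10 (-0.026) and Slc7a8 (-0.058). With 1 library left out the difference ran from -0.53 to 0.11 for Slc1a1, from -0.26 to 0.062 for Slc1a4, from -0.39 to 0.43 for Slc2a1, from -0.22 to 0.059 for Slc2a3, from -0.099 to 0.70 for Slc2a5, from -0.29 to 0.0050 for Slc2a6, from -0.27 to 0.48 for Slc2a9, from -0.0041 to 0.068 for Slc38a10, from -0.021 to 0.098 for Slc38a7, from -0.35 to 0.13 for Slc5a1, from -0.060 to 0.043 for Slc7a6 and from -0.032 to 0.24 for Slc7a8. The median of all genes moved from 0.060 to 0.109 with sums set to 1000000 and to -0.000039 with median-of-ratios scaling. Depth per library is unknown.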
